A study of Rattus norvegicus with 8 samples.

Results

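C6SPGFP fast cells were compared with C6 fast cells, the cells labelled fast in each of 2 sets of rat glioma cells, on 4 of the 8 arrays of the series. The 4 arrays were chosen by their titles alone: 2 carry the title C6SPGFP fast and 2 the title C6 fast. The remaining 4 arrays hold the slow cells of the same sets, 2 C6 slow and 2 C6SPGFP slow. C6 is an established rat glioma cell line, and the labels name it as the source of all 8 samples. The labels describe the samples by the word migration and give total RNA as the material. They do not say what SPGFP stands for, how C6SPGFP cells were made from C6, whether they are 1 clone, or how fast and slow cells were separated. They also do not say whether the 2 arrays of a group came from separate cultures, so the p-values below rest on a spread between arrays that may be purely technical. The series addresses expression in fast glial cells; the comparison here asks how fast cells of the 2 sets differ.

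C6 cells keep glial features and are known to express genes of both the astrocytic and the oligodendrocytic lineage. Glial cells move by extending actin- and microtubule-filled processes, by gripping matrix through integrins and other adhesion proteins, and by cutting matrix with secreted proteases. Sox10 is the transcription factor that sets up the oligodendroglial and Schwann cell programmes, and S100b is a calcium-binding protein of astrocytes and other glia.

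Each array was an Affymetrix rat array, on which a probe set is a group of short probes that report 1 transcript. Signals below are probe set intensities after quantile normalisation of the 8 arrays, which gives every array the same distribution, and have no unit beyond that scale. Log2 changes are C6SPGFP fast minus C6 fast of log2(signal + 8), given ± SE with 2 arrays a group. A probe set was called when the Benjamini-Hochberg adjusted p of limma's moderated test was under 0.05. The added 8 keeps noise in dim probe sets small, so it understates the change of a gene whose signal is a few units in 1 group. Signals of a few units were not shown to lie above background. Where 1 group lies there, the log2 change is set largely by the added 8 and is no estimate of a fold.

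The proximal promoters of 4 genes are shown because these genes carry the pattern described below. Pla2g4a and Ptgs2, neighbours on the same chromosome, were both high in C6 fast cells and low in C6SPGFP fast cells. S100b and Tubb2b were among the 15 largest increases, ranked here and below among called probe sets with 1 gene symbol. A called probe set without a symbol had a log2 change of 4.15, above the 4.11 of S100b, and was not ranked. In slow cells it changed by -1.39. Each sequence is the 250 bases before the RefSeq transcription start on GRCr8, written 5′ to 3′ on the gene's strand. Capitals mark exact matches, on either strand, of 4 motifs. The first is TATAAA, bound by the general transcription machinery. The next is CCAAT, the site of nuclear factor Y. The others are TGACG, the core of a cAMP response element, and GGGCGG, bound by Sp factors.
Pla2g4a (chr13:64572353-64572602, minus strand): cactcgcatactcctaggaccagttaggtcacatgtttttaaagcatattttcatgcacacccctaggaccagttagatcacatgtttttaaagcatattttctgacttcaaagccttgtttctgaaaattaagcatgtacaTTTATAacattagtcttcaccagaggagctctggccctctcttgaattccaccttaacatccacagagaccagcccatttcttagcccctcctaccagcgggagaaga
Ptgs2 (chr13:64713813-64714062, plus strand): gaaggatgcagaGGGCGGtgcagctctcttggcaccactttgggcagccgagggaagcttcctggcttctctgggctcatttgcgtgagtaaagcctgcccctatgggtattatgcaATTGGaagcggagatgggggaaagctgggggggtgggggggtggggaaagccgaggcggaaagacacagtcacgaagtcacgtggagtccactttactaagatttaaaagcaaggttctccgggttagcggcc
S100b (chr20:12381082-12381331, minus strand): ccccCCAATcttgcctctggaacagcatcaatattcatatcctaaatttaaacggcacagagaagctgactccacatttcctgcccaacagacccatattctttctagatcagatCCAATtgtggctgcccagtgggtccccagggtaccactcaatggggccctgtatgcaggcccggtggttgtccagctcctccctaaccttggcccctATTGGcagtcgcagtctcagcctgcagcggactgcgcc
Tubb2b (chr17:30952836-30953085, plus strand): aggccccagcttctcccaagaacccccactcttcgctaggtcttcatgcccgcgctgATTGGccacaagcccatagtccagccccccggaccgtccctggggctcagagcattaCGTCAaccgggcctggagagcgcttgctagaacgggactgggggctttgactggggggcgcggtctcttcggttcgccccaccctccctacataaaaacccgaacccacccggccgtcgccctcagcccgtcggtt
Among 27457 rat promoters of this length, 13.1% held TATAAA, 34.3% CCAAT, 19% TGACG and 32.4% GGGCGG. The Pla2g4a window held 1 TATAAA match, on the strand opposite the gene, 108 bases before the start. Whether it acts in transcription was not tested. The Ptgs2 window held 1 CCAAT and 1 GGGCGG match, the S100b window 3 CCAAT matches, and the Tubb2b window 1 CCAAT and 1 TGACG match. The starts of Pla2g4a and Ptgs2 lie 141711 bases apart on chromosome 13, with 0 protein-coding genes between them. Sox10, Ptprz1 and Atp1b1 also belong to the largest changes.

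Of 6684 probe sets tested, 1042 were called (15.6%), 554 higher (8.29%) and 488 lower (7.3%) in C6SPGFP fast cells. At an unadjusted p under 0.05 there were 1932. Changes over 2-fold, on the signal + 8 scale, numbered 366 higher and 262 lower, changes over 4-fold 127 and 53, and changes over 8-fold 51 and 18. The calls came from 377 genes that rose and 338 that fell, and 0 genes had calls in both directions. All 1042 called probe sets separated the 4 arrays without overlap, as 55.6% of all tested probe sets did. With 1 probe set per gene, 8.82% of 3878 genes were higher and 7.09% lower, with a median log2 change of -0.03, and the gene groups below are read beside these shares. The number of calls rests on each fast array: it was 668 without C6 fast replicate 1, 588 without C6SPGFP fast replicate 1 and 509 without C6SPGFP fast replicate 2. Without C6 fast replicate 2 the calls in the lower direction were 294.

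**Figure D1:**
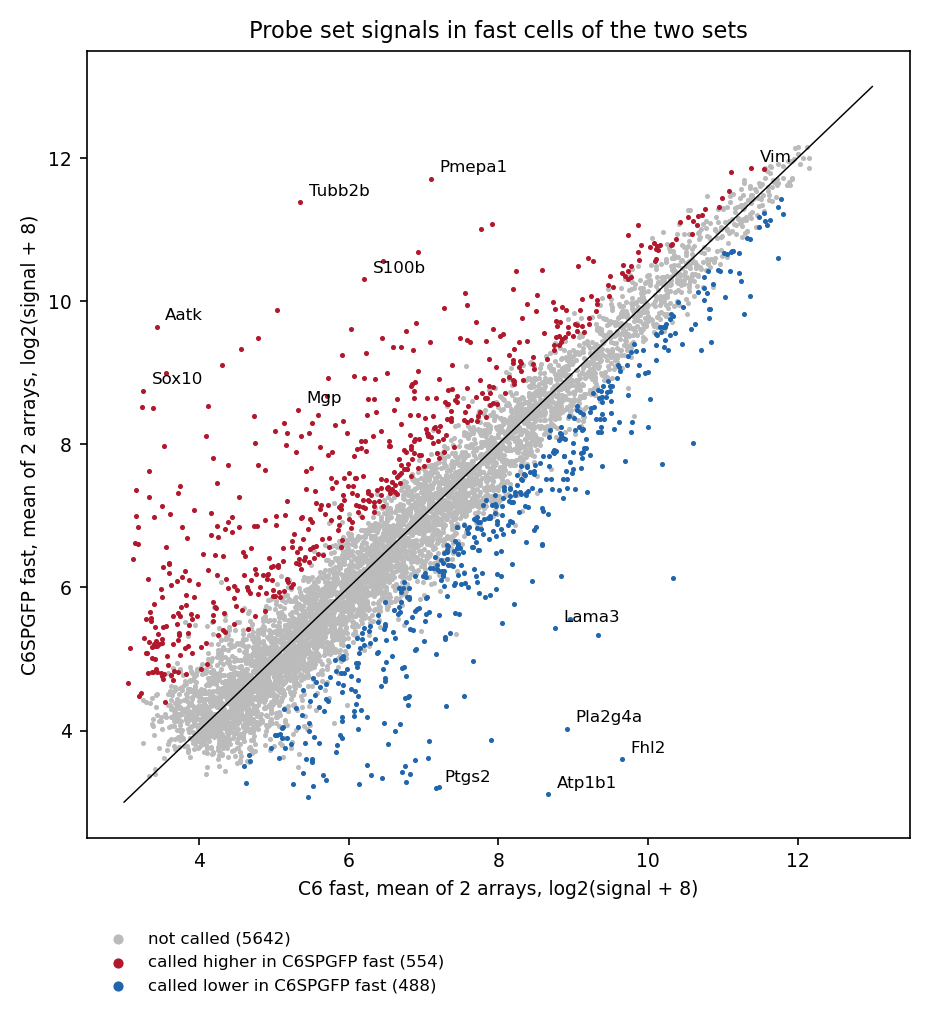
Mean log2(signal + 8) of the 2 C6 fast arrays (horizontal axis) and of the 2 C6SPGFP fast arrays (vertical axis) for the 6684 probe sets tested, with the line of equal signal. The 554 probe sets called higher in C6SPGFP fast cells are red and the 488 called lower are blue; Tubb2b, Aatk and Sox10 lie far above the line, and Fhl2, Atp1b1 and Pla2g4a far below it.

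On the deposited scale C6SPGFP fast replicate 1 had a trimmed mean of 500.5 and the 7 other arrays one of 100.1 to 105.8, so scaling precedes every comparison. After normalisation the 2 C6 fast arrays correlated at r = 0.977 over probe sets and the 2 C6SPGFP fast arrays at r = 0.984. Arrays of the 2 fast groups correlated at r = 0.939 to 0.942, while C6SPGFP fast and C6 slow arrays correlated at r = 0.964 to 0.969. Summed signals of the astroglial markers present on the array (8 of 9, 6 above the filter on low signals) were 3133 and 3411 on the C6 fast arrays and 5930 and 5977 on the C6SPGFP fast arrays. Vim alone gave 2594 and 2723 of these sums against 3602 and 3831. S100b and Nes were also higher on the C6SPGFP fast arrays, and Glul was lower. Sums of the oligodendroglial and Schwann markers (7 of 11, all 7 tested) were 1588 and 1321 against 3503 and 2897. Pmp22 alone gave 1177 and 972 of these against 2100 and 1475. Cnp, Sox10 and, without a call, Mag were also higher, and Cspg4, Mog and Mbp overlapped between the groups. Neuronal marker sums (7 of 9) overlapped, at 225 and 193 against 164 and 232, as did endothelial and mural sums (8 of 11), at 556 and 467 against 516 and 531. Microglial and haematopoietic sums (8 of 11) were 342 and 386 against 482 and 444, and fibroblast sums (6 of 6) were 206 and 193 against 367 and 385. The defining markers Aqp4 and Fabp7 (astrocytes), Itgam and Cd53 (microglia), Kdr (endothelium), Thy1 and Syt1 lay below the filter, with signals of 0.60 to 12.0 over the 8 arrays, and none was listed at 0. In bulk RNA, fewer cells of a type and less RNA per cell cannot be told apart, and the part of these markers in the results was not tested.

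**Figure D2:**
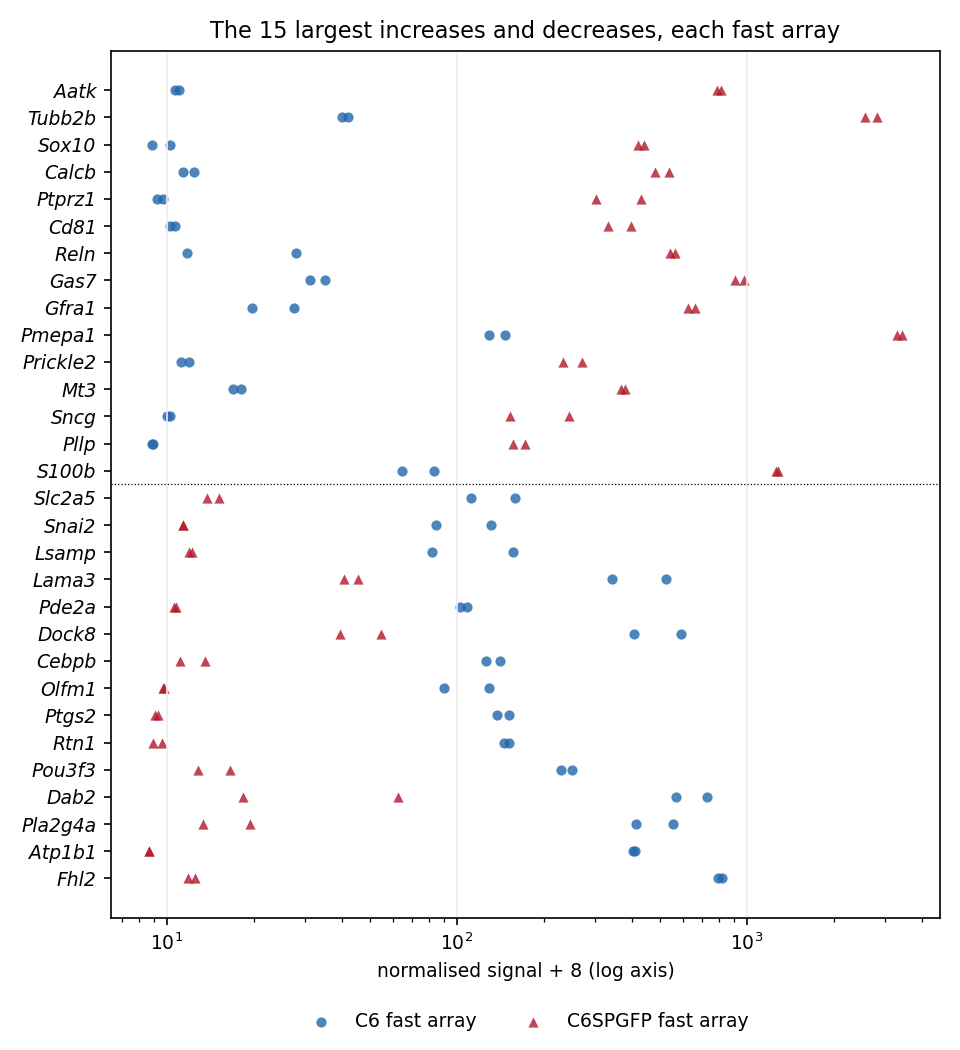
Normalised signal + 8 (log axis) of the 15 largest increases, above the dotted line, and the 15 largest decreases, below it. Each circle is 1 C6 fast array and each triangle 1 C6SPGFP fast array. All 30 genes were chosen among probe sets whose arrays do not overlap between the 2 groups.

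The transcription factor genes Sox10 and Egr2 were among the oligodendroglial and Schwann genes that rose in C6SPGFP fast cells. Of 18 tested members of the oligodendroglial and Schwann list, 9 were higher and 0 lower, with a median log2 change of 0.54. The 9 others were not called, and 5 of the 18 had a change below 0. Sox10 had signals of 2.23 and 0.90 on the C6 fast arrays and 433 and 411 on the C6SPGFP fast arrays. It was near the floor on both C6 fast arrays and bright on both C6SPGFP fast arrays, a change of 5.49 ± 0.22 (adjusted p = 2.73e-06). Egr2, the transcription factor that drives myelin genes downstream of Sox10, had signals of 12.3 and 13.5 on the C6 fast arrays and 181 and 221 on the C6SPGFP fast arrays. Ngfr, the low-affinity neurotrophin receptor of immature Schwann cells, had signals of 113 and 109.6 on the C6 fast arrays and 900.5 and 736 on the C6SPGFP fast arrays. Both genes were several-fold higher on each C6SPGFP fast array, with log2 changes of 3.32 ± 0.30 (adjusted p = 0.000196) and 2.78 ± 0.15 (adjusted p = 1.16e-05). Cd9, a tetraspanin abundant in myelinating glia, rose by 3.23 ± 0.20 (adjusted p = 2.28e-05). Pllp, the myelin proteolipid plasmolipin and one of the 15 largest increases, had signals of 0.912 and 0.90 on the C6 fast arrays and 164 and 148 on the C6SPGFP fast arrays and changed by 4.20 ± 0.31 (adjusted p = 5.56e-05). The myelin protein genes Mag, Mog and Mbp, markers of mature oligodendrocytes, were not called. Mbp signals were 17.7 and 6.29 on the C6 fast arrays and 5.39 and 14.3 on the C6SPGFP fast arrays, so they overlapped, and Mag signals were 79.7 and 57.1 against 86.5 and 113.7. The brightest member of the list, the myelin protein gene Pmp22, had signals of 1177 and 972 on the C6 fast arrays and 2100.1 and 1475 on the C6SPGFP fast arrays and rose by 0.71 ± 0.18 (adjusted p = 0.0271). Pmp22 lost the call in each fit without C6 fast replicate 1 or 2 or C6SPGFP slow replicate 1 or 2. It also lost the call without C6SPGFP fast replicate 1. Its log2 changes in those fits were 0.49 to 0.84. For further probe sets no call was made: Ngfr (0.27) and Pmp22 (0.17), with log2 changes in parentheses.

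Slow cells of the 2 sets gave different values for these genes. Sox10 signals were 240.5 and 367 on the C6 slow arrays and 531 and 571 on the C6SPGFP slow arrays, so that the C6 fast arrays stood below the other 6. The C6SPGFP minus C6 change of Sox10 in slow cells was 0.87 ± 0.22 (adjusted p = 0.0563), and the change in fast cells exceeded it by 4.62 ± 0.31 (adjusted p = 0.000126). Pllp, by contrast, was low on the C6 slow arrays, with signals of 1.88 and 11.3. On the C6SPGFP slow arrays Pllp had 173 and 158, and it changed by 3.65 ± 0.31 (adjusted p = 0.000515) in slow cells. Ngfr rose in slow cells too, by 1.48 ± 0.15 (adjusted p = 0.00132), which was less than in fast cells by 1.31 ± 0.21 (adjusted p = 0.0114).

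Astroglial and progenitor genes moved both ways. Of 27 tested members of the astroglial and progenitor list, 9 were higher and 5 lower, with a median log2 change of 0.48. Ptprz1, a receptor tyrosine phosphatase of glial progenitors that binds pleiotrophin, had signals of 1.69 and 1.23 on the C6 fast arrays and 293 and 424 on the C6SPGFP fast arrays. The metal-binding protein gene Mt3 had signals of 8.87 and 10.1 on the C6 fast arrays and 359 and 369.9 on the C6SPGFP fast arrays, and S100b had signals of 56.8 and 75.0 on the C6 fast arrays and 1275 and 1247 on the C6SPGFP fast arrays. All 3 genes stood at low signals on both C6 fast arrays and well above them on both C6SPGFP fast arrays. Their log2 changes were 5.25 ± 0.25 (adjusted p = 5.23e-06), 4.42 ± 0.20 (adjusted p = 4.88e-06) and 4.11 ± 0.16 (adjusted p = 2.12e-06). Fabp5, a fatty acid-binding protein, rose by 2.66 ± 0.16 (adjusted p = 2.15e-05). Vim, the intermediate filament vimentin of migratory and immature glia, was among the brightest probe sets, with signals of 2594 and 2723 on the C6 fast arrays and 3602 and 3831 on the C6SPGFP fast arrays, and rose by 0.48 ± 0.10 (adjusted p = 0.0115). Id3, an inhibitor of basic helix-loop-helix factors, had signals of 1822 and 1519 on the C6 fast arrays and 661 and 599 on the C6SPGFP fast arrays and changed by -1.39 ± 0.14 (adjusted p = 0.000351). Notch2 (-1.20), Gja1 (-1.17) and Clu (-0.91) fell as well, with the log2 changes in parentheses; they encode a Notch receptor, the gap junction protein connexin 43 and the chaperone clusterin. Glul, glutamine synthetase, fell by 0.68. Gfap, the classical astrocyte filament, has no probe set named for it here. Clu, Gja1, Glul, Notch2 and Vim were each no longer called in at least 1 of the fits that left out C6 fast replicates 1 or 2, C6SPGFP slow replicates 1 or 2 or C6SPGFP fast replicates 1 or 2 (in those fits, adjusted p of 0.0651 to 0.226 and log2 changes of 0.44 to 0.45 and of -0.51 to -1.23). No call was reached, at the log2 changes given, by further probe sets of Glul (0.25, -0.04 and -0.27) and S100b (0.59).

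**Figure D3:**
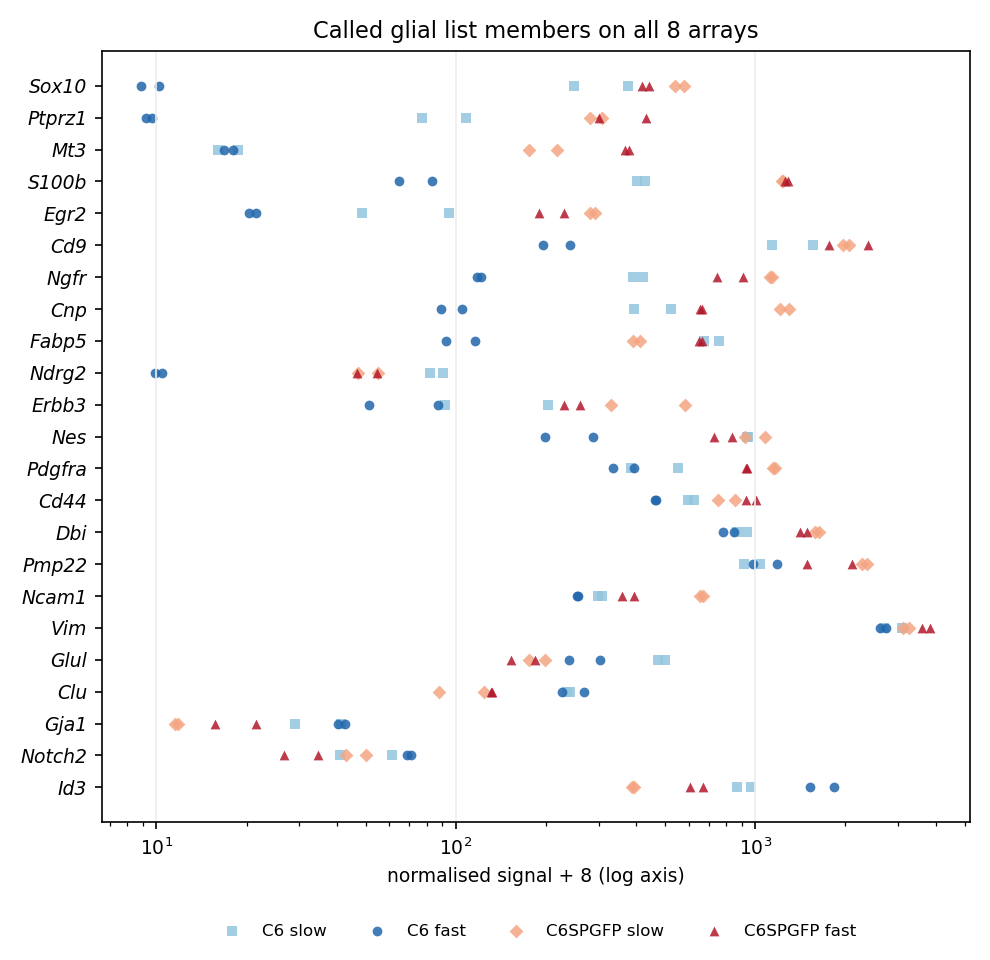
Normalised signal + 8 (log axis) on all 8 arrays for every called member of the oligodendroglial and Schwann list and of the astroglial and progenitor list, ordered by their change in fast cells. Squares are C6 slow, circles C6 fast, diamonds C6SPGFP slow and triangles C6SPGFP fast arrays; for Sox10, Ptprz1 and S100b the 2 C6 fast arrays are the lowest of the 8.

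Neuronal and synaptic genes were split in direction, with large changes on both sides. Of 45 tested members of the neuronal and synaptic list, 7 were higher and 6 lower, with a median log2 change of 0.02. Reln, the secreted guidance protein reelin, had signals of 19.8 and 3.70 on the C6 fast arrays and 535 and 557 on the C6SPGFP fast arrays, and Sncg, gamma-synuclein, had signals of 2.23 and 1.96 on the C6 fast arrays and 144 and 236 on the C6SPGFP fast arrays. Gad1, the enzyme that makes the transmitter GABA, had signals of 2.98 and 2.12 on the C6 fast arrays and 126 and 111 on the C6SPGFP fast arrays. Each of the 3 genes was well above its C6 fast signal on both C6SPGFP fast arrays. Their changes were 4.94 ± 0.34 (adjusted p = 4.46e-05), 4.25 ± 0.28 (adjusted p = 2.95e-05) and 3.58 ± 0.22 (adjusted p = 1.97e-05), and Scg2, a secretory granule protein, rose by 3.64 ± 0.39 (adjusted p = 0.000504). In the other direction, Rtn1, a reticulon of the endoplasmic reticulum, had signals of 137 and 143 on the C6 fast arrays and 0.938 and 1.60 on the C6SPGFP fast arrays. Olfm1, a secreted olfactomedin, had signals of 82.3 and 121 on the C6 fast arrays and 1.66 and 1.77 on the C6SPGFP fast arrays, and the cell adhesion gene Lsamp had signals of 74.1 and 148 on the C6 fast arrays and 4.17 and 3.86 on the C6SPGFP fast arrays. These were moderate in C6 fast cells and a few units in C6SPGFP fast cells, and fell: Rtn1 (-4.0), Olfm1 (-3.47) and Lsamp (-3.23), each with its log2 change. Basp1, a growth cone protein, changed by -2.68 ± 0.16 (adjusted p = 1.88e-05). The brightest member, the ubiquitin hydrolase gene Uchl1, was not called, with signals of 687 and 768 on the C6 fast arrays and 999 and 917 on the C6SPGFP fast arrays. Olfm1 (-0.38) had further probe sets without a call, at the log2 changes given.

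Among neuropeptide genes, 6 rose and 2 fell. Of 34 tested members of the neuropeptides and processing list, 6 were higher and 2 lower, with a median log2 change of 0.01. Calcb, a calcitonin gene-related peptide, had signals of 4.34 and 3.35 on the C6 fast arrays and 472 and 531 on the C6SPGFP fast arrays, a change of 5.43 ± 0.17 (adjusted p = 5.28e-07). Gnrhr, the gonadotropin-releasing hormone receptor, had signals of 0.750 and 0.90 on the C6 fast arrays and 91.3 and 89.8 on the C6SPGFP fast arrays. It stood near the floor on the 2 slow sets also, at 0.912 and 2.17 on the C6 slow arrays and 1.69 and 0.550 on the C6SPGFP slow arrays, so that the 2 C6SPGFP fast arrays stood above the other 6. Npr3, the clearance receptor of natriuretic peptides, rose by 2.06 ± 0.22 (adjusted p = 0.000473). Penk, which encodes the enkephalin precursor and was the brightest member, had signals of 2055 and 1619.6 on the C6 fast arrays and 655 and 710.5 on the C6SPGFP fast arrays and fell, with a change of -1.41 ± 0.15 (adjusted p = 0.000504). Pam, which amidates peptide ends, fell by 0.73. Pam lost the call in each fit that left out 1 of the fast arrays, with log2 changes of -0.60 to -0.89 in those fits. In further probe sets no call was reached: Pam (-0.53 and -0.20), with log2 changes in parentheses.

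The beta-tubulin gene Tubb2b was one of the 15 largest increases. Of 20 tested members of the tubulin and microtubule list, 4 were higher and 2 lower, with a median log2 change of 0.15. Tubb2b, a beta-tubulin of developing neural cells, had signals of 32 and 34.0 on the C6 fast arrays and 2796 and 2535 on the C6SPGFP fast arrays, a change of 6.03 ± 0.12 (adjusted p = 5.12e-08). The slow arrays had 1629 and 1742 on the C6 slow arrays and 3357 and 3515 on the C6SPGFP slow arrays, so the 2 C6 fast arrays were far below the other 6. Crmp1, which links semaphorin signals to microtubules, had signals of 7.56 and 30.1 on the C6 fast arrays and 246 and 255 on the C6SPGFP fast arrays and changed by 3.40 ± 0.36 (adjusted p = 0.000504). The related gene Dpysl3 and the dynein light chain gene Dynlt1 rose by 1.25 and 0.66, whereas the dynein heavy chain gene Dync1h1 and the dynein regulator gene Pafah1b1 changed by -1.27 and -0.77. Tubb5, the brightest tubulin of the list, was not called, with signals of 4768 and 4287 on the C6 fast arrays and 3857 and 3602 on the C6SPGFP fast arrays. Tubulin probe sets can share sequence between paralogues, so a split of signal among them is uncertain. Dpysl3 and Pafah1b1 were each no longer called in at least 1 of the fits that left out C6 slow replicates 1 or 2, C6 fast replicate 1, C6SPGFP slow replicates 1 or 2 or C6SPGFP fast replicates 1 or 2 (in those fits, adjusted p of 0.0542 to 0.186 and log2 changes of 0.75 to 1.45 and of -0.55 to -0.80). No call was reached, at the log2 changes given, by further probe sets of Pafah1b1 (0.41).

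Among actin and contractility genes, 13 rose and 4 fell. Of 49 tested members of the actin and contractility list, 13 were higher and 4 lower, with a median log2 change of 0.04, which is -0.05 when arrays are scaled by their trimmed mean instead. Ezr, which ties actin to the membrane, had signals of 134 and 82.0 on the C6 fast arrays and 531 and 729 on the C6SPGFP fast arrays. Rhob, a small GTPase of stress fibres and endosomes, had signals of 195 and 148 on the C6 fast arrays and 664 and 748 on the C6SPGFP fast arrays. Both were several-fold higher on each C6SPGFP fast array, with changes of 2.48 ± 0.26 (adjusted p = 0.000504) and 2.0 ± 0.18 (adjusted p = 0.000219). The membrane skeleton gene Add3 rose by 2.09 ± 0.18 (adjusted p = 0.000152) and Marcks, a protein kinase C substrate that binds actin, by 1.48 ± 0.16 (adjusted p = 0.000504). Actn4, the actin crosslinker alpha-actinin 4, had signals of 1047 and 991 on the C6 fast arrays and 401 and 188 on the C6SPGFP fast arrays and changed by -1.86 ± 0.28 (adjusted p = 0.00297). Tpm1 (-0.93), Ank3 (-0.93) and Add1 (-0.76) fell, by the log2 changes in parentheses. They encode tropomyosin 1, ankyrin 3 and adducin 1. Other probe sets of Ank3 (-1.55, -1.46, -1.31 and -0.88) and Add1 (-2.42 and -0.87) were called lower as well. Actg1, cytoplasmic gamma-actin, was not called, with signals of 3787 and 3975 on the C6 fast arrays and 3958 and 3958 on the C6SPGFP fast arrays. Fhl2, a LIM-domain protein of focal adhesions and the nucleus, was one of the 15 largest decreases. Its signals were 814 and 786 on the C6 fast arrays and 3.77 and 4.53 on the C6SPGFP fast arrays, a change of -6.06 ± 0.19 (adjusted p = 5.28e-07), and on the slow arrays 165 and 198 on the C6 slow arrays and 6.5 and 5.72 on the C6SPGFP slow arrays. Add1, Ank3 and Tpm1 each missed the threshold in at least 1 of the fits that left out C6 fast replicates 1 or 2, C6SPGFP slow replicates 1 or 2 or C6SPGFP fast replicates 1 or 2 (in those fits, adjusted p of 0.0512 to 0.262 and log2 changes of -0.51 to -1.16). Add1 (0.01), Add3 (0.07), Marcks (0.22) and Tpm1 (-0.72, 0.20, -0.49 and 0.26) had further probe sets without a call, at the log2 changes given.

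The tetraspanin gene Cd81 and the integrin gene Itga1 were among the adhesion genes that rose. Of 43 tested members of the adhesion and guidance list, 12 were higher and 3 lower, with a median log2 change of 0.30. Cd81, a tetraspanin that organises integrins at the membrane, had signals of 2.23 and 2.65 on the C6 fast arrays and 324 and 388 on the C6SPGFP fast arrays, a change of 5.12 ± 0.23 (adjusted p = 4.88e-06). Itga1, the collagen and laminin receptor integrin alpha 1, had signals of 41.2 and 49.0 on the C6 fast arrays and 404 and 552 on the C6SPGFP fast arrays. Pdpn, podoplanin, a membrane glycoprotein that binds ezrin, had signals of 5.08 and 14.8 on the C6 fast arrays and 137 and 111 on the C6SPGFP fast arrays. Both were well above their C6 fast signals on both C6SPGFP fast arrays. They changed by 3.18 ± 0.23 (adjusted p = 5.68e-05) and 2.93 ± 0.36 (adjusted p = 0.00104). The laminin-binding integrin gene Itga7 and the heparan sulfate proteoglycan gene Sdc1 fell, with changes of -0.57 and -0.58. Lgals1, the galectin with the highest signal of the list, was not called, with signals of 3857 and 4074 on the C6 fast arrays and 4074 and 4023 on the C6SPGFP fast arrays. Itga7 and Sdc1 each lost the call in at least 1 of the fits that left out C6 fast replicates 1 or 2, C6SPGFP slow replicates 1 or 2 or C6SPGFP fast replicates 1 or 2 (in those fits, adjusted p of 0.0579 to 0.165 and log2 changes of -0.47 to -0.64). Among further probe sets the call was missed: Itga7 (-0.20 and -0.70), with log2 changes in parentheses.

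The matrix genes with the 4 largest increases were Mgp, Eln, Bgn and Bcan. Of 40 tested members of the extracellular matrix list, 10 were higher and 2 lower, with a median log2 change of 0.15. Mgp, matrix Gla protein, had signals of 16.2 and 48.1 on the C6 fast arrays and 318 and 382 on the C6SPGFP fast arrays, a change of 3.27 ± 0.36 (adjusted p = 0.000559). Its C6SPGFP slow signals were higher still, with 45.6 and 66.1 on the C6 slow arrays and 2681 and 2475 on the C6SPGFP slow arrays. Bgn, the small proteoglycan biglycan, had signals of 223 and 364 on the C6 fast arrays and 1478 and 1238 on the C6SPGFP fast arrays, and Bcan, the brain proteoglycan brevican, had 15.2 and 22 on the C6 fast arrays and 126 and 91.0 on the C6SPGFP fast arrays. Elastin, Eln, had signals of 49.9 and 13 on the C6 fast arrays and 237 and 224 on the C6SPGFP fast arrays. These 3 genes changed by 2.22 ± 0.27 (adjusted p = 0.00102), 2.13 ± 0.29 (adjusted p = 0.00155) and 2.77 ± 0.46 (adjusted p = 0.00433). Lama3, a laminin chain of epithelial basement membranes, was the matrix gene with the largest decrease, with signals of 334 and 518 on the C6 fast arrays and 32.7 and 37.4 on the C6SPGFP fast arrays and a change of -3.30 ± 0.26 (adjusted p = 8.21e-05). P4ha1, which hydroxylates collagen, fell by 1.09. Spp1, osteopontin, the brightest member, rose by 0.53. P4ha1 and Spp1 were each no longer called in at least 1 of the fits that left out C6 fast replicates 1 or 2, C6SPGFP slow replicates 1 or 2 or C6SPGFP fast replicates 1 or 2 (in those fits, adjusted p of 0.0558 to 0.199 and log2 changes of 0.36 to 0.60 and of -0.74 to -1.14).

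Genes of proteases that act outside the cell or in lysosomes were among those that rose. Of 37 tested members of the proteases and inhibitors list, 10 were higher and 1 lower, with a median log2 change of 0.06. Mmp16, a membrane-type matrix metalloproteinase, had signals of 0.912 and 0.456 on the C6 fast arrays and 64.6 and 87.8 on the C6SPGFP fast arrays. F3, tissue factor, which starts blood clotting, had signals of 6.84 and 4.65 on the C6 fast arrays and 104 and 109 on the C6SPGFP fast arrays, and the lysosomal protease gene Ctsl had 213 and 148 on the C6 fast arrays and 1019.7 and 1179 on the C6SPGFP fast arrays. Each was higher on both C6SPGFP fast arrays, by 3.26 ± 0.23 (adjusted p = 4.63e-05), 3.06 ± 0.24 (adjusted p = 8.21e-05) and 2.57 ± 0.18 (adjusted p = 4.63e-05). Plat, tissue plasminogen activator, rose by 1.61 ± 0.28 (adjusted p = 0.00525). Timp3, an inhibitor of metalloproteinases that sits in the matrix, was the 1 member that fell, with signals of 272 and 216 on the C6 fast arrays and 78.9 and 51.5 on the C6SPGFP fast arrays and a change of -1.80 ± 0.23 (adjusted p = 0.00122). Serpine2, a serine protease inhibitor of glia and the brightest member, was not called, with signals of 2761 and 3082 on the C6 fast arrays and 2723 and 2771 on the C6SPGFP fast arrays. Plat lost the call without C6SPGFP fast replicate 2, with an adjusted p of 0.0502 and a log2 change of 1.51.

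Growth factor co-receptors and adaptors were among the genes that rose. Of 62 tested members of the growth factors and receptors list, 11 were higher and 3 lower, with a median log2 change of 0.13. Gfra1, the co-receptor for the neurotrophic factor GDNF, had signals of 11.7 and 19.5 on the C6 fast arrays and 618 and 652 on the C6SPGFP fast arrays, a change of 4.79 ± 0.20 (adjusted p = 2.73e-06). Grb14, an adaptor that restrains the insulin receptor, had signals of 30.3 and 25.5 on the C6 fast arrays and 256 and 234 on the C6SPGFP fast arrays and changed by 2.82 ± 0.25 (adjusted p = 0.000178). Efna1, a membrane-bound ephrin ligand, had signals of 179.9 and 212 on the C6 fast arrays and 70.7 and 66.4 on the C6SPGFP fast arrays and fell, by a change of -1.41 ± 0.21 (adjusted p = 0.00238). Igf2r, the receptor that clears insulin-like growth factor 2, changed by -1.15 ± 0.15 (adjusted p = 0.00122), and Bdnf, a neurotrophin, by -0.96 ± 0.20 (adjusted p = 0.0125). Grn, the growth factor progranulin and the brightest member, was not called, with signals of 1312 and 1279.5 on the C6 fast arrays and 1501 and 1607 on the C6SPGFP fast arrays. Aatk, an apoptosis-associated kinase of the nervous system, was one of the 15 largest increases. Its signals were 2.98 and 2.65 on the C6 fast arrays and 781 and 806 on the C6SPGFP fast arrays, a change of 6.21 ± 0.15 (adjusted p = 1.42e-07). The Bdnf probe set given above lost the call without C6 fast replicate 2 and without C6SPGFP fast replicate 1. Its log2 changes in those fits were -0.86 and -0.83. Other Bdnf probe sets were called lower with larger changes, of -2.88 ± 0.26 (adjusted p = 0.000181) and -1.87 ± 0.30 (adjusted p = 0.00378). The former had signals of 71.2 and 53.2 on the C6 fast arrays and 2.4 and 0.65 on the C6SPGFP fast arrays. For further probe sets no call was made: Bdnf (0.49, 0.41 and -0.91), with log2 changes in parentheses.

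In the TGF-beta, BMP and activin group the ligand Bmp7 and the target gene Pmepa1 rose. Of 33 tested members of the TGF-beta, BMP and activin list, 5 were higher and 1 lower, with a median log2 change of 0.03. Pmepa1, a TGF-beta target that dampens the signal, had signals of 121 and 139 on the C6 fast arrays and 3287 and 3416 on the C6SPGFP fast arrays, a change of 4.61 ± 0.12 (adjusted p = 1.42e-07). On the slow arrays it had 3247 and 2886 on the C6 slow arrays and 3640.0 and 3357 on the C6SPGFP slow arrays, so that the 2 C6 fast arrays stood far below the other 6. Bmp7, a bone morphogenetic protein, had signals of 4.53 and 4.0 on the C6 fast arrays and 135 and 109 on the C6SPGFP fast arrays, a change of 3.40 ± 0.22 (adjusted p = 2.74e-05). Tgfb3, a TGF-beta ligand, and Tgfbr1, the type I receptor, rose by 1.0 and 1.53. Dab2, an endocytic adaptor that also binds Smad proteins, fell in both speeds. Its signals were 560.1 and 717 on the C6 fast arrays and 10.3 and 54.4 on the C6SPGFP fast arrays, a change of -4.25 ± 0.47 (adjusted p = 0.000653), and in slow cells 259.8 and 318 on the C6 slow arrays and 4.67 and 5.26 on the C6SPGFP slow arrays. Tgfb3 and Tgfbr1 were each no longer called in at least 1 of the fits that left out C6 fast replicate 1 or C6SPGFP fast replicate 2 (in those fits, adjusted p of 0.0509 to 0.0876 and log2 changes of 0.82 to 1.35). No call was reached, at the log2 changes given, by further probe sets of Tgfbr1 (1.06).

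The 2 called genes of the arachidonic acid list encode the enzymes that start prostaglandin synthesis. Of 20 tested members of the arachidonic acid and prostaglandin list, 0 were higher and 2 lower, with a median log2 change of 0.09. Pla2g4a, the cytosolic phospholipase that releases arachidonic acid from membranes, had signals of 407 and 549 on the C6 fast arrays and 11.3 and 5.31 on the C6SPGFP fast arrays. Ptgs2, the inducible cyclooxygenase that converts it to prostaglandin precursors, had signals of 129.7 and 143 on the C6 fast arrays and 1.09 and 1.29 on the C6SPGFP fast arrays. Both genes stood far higher on the C6 fast arrays than on the C6SPGFP fast arrays, where they were dim. They changed by -4.90 ± 0.31 (adjusted p = 2.74e-05) and -3.97 ± 0.24 (adjusted p = 1.97e-05). The slow arrays were also low, with 6.39 and 12.2 on the C6 slow arrays and 8.38 and 16 on the C6SPGFP slow arrays for Pla2g4a. For Ptgs2 they were 3.25 and 3.12 on the C6 slow arrays and 4.56 and 1.91 on the C6SPGFP slow arrays, so the 2 C6 fast arrays stood above the other 6 for both genes. Cebpb, a transcription factor of inflammatory genes, had signals of 133 and 117 on the C6 fast arrays and 3.09 and 5.47 on the C6SPGFP fast arrays. Its change was -3.44 ± 0.25 (adjusted p = 5.18e-05). Another Cebpb probe set had 367 and 319 on the C6 fast arrays and 56.4 and 64.1 on the C6SPGFP fast arrays. It changed by -2.36 ± 0.22 (adjusted p = 0.000227) in fast cells and by -1.64 ± 0.22 (adjusted p = 0.00471) in slow cells. Pla2g4a and Ptgs2 changed by 0.22 and -0.0036 in slow cells. A link between Cebpb and these genes was not tested. Lta4h, which makes a leukotriene and had the highest signal of the list, was not called, with signals of 680.3 and 885 on the C6 fast arrays and 818 and 936 on the C6SPGFP fast arrays.

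Chemokine and cytokine genes were mixed. Of 45 tested members of the chemokines, cytokines and receptors list, 8 were higher and 3 lower, with a median log2 change of 0.14. Ccl2, which attracts monocytes, had signals of 97.5 and 196 on the C6 fast arrays and 817 and 1079 on the C6SPGFP fast arrays, a change of 2.69 ± 0.29 (adjusted p = 0.000504). Il1rap, the shared receptor chain of interleukin 1 signalling, rose by 1.90 ± 0.32 (adjusted p = 0.00456), the tumour necrosis factor receptor gene Tnfrsf1b by 1.44 ± 0.35 (adjusted p = 0.0242) and the cytokine signalling inhibitor gene Socs2 by 1.24 ± 0.26 (adjusted p = 0.0148). Il4r (-1.37), Csf3 (-0.67) and Mif (-0.52) fell, with the log2 changes in parentheses; they encode an interleukin 4 receptor chain, a colony-stimulating factor and macrophage migration inhibitory factor. The median log2 change of the interferon and antigen presentation list was 0.23. Of its 27 tested members, 2 were higher (7.41%) and 2 lower (7.41%), near the shares of all genes. There the class I light chain gene B2m and the guanylate-binding gene Gbp2 rose by 0.83 and 0.96, and the immunoproteasome gene Psmb8 and the antiviral GTPase gene Mx2 changed by -0.79 and -1.62. Psme1, a proteasome activator, was not called, with signals of 885 and 859.7 on the C6 fast arrays and 1684 and 1103 on the C6SPGFP fast arrays. Of 12 microglial and haematopoietic genes, the kinase gene Lyn and the lipopolysaccharide receptor gene Cd14, the brightest of them, rose by 1.75 and 1.02, and the tetraspanin gene Cd37 fell by 1.10. None of 13 endothelial and mural genes was called, and their brightest member, the smooth muscle gene Tagln, had signals of 234 and 117 on the C6 fast arrays and 129 and 161 on the C6SPGFP fast arrays. B2m, Cd14, Cd37, Csf3, Gbp2, Il4r, Lyn, Mif, Mx2, Psmb8, Socs2 and Tnfrsf1b each missed the threshold in at least 1 of the fits that left out C6 slow replicates 1 or 2, C6 fast replicates 1 or 2, C6SPGFP slow replicates 1 or 2 or C6SPGFP fast replicates 1 or 2 (in those fits, adjusted p of 0.0504 to 0.204 and log2 changes of 0.59 to 1.64 and of -0.46 to -1.75). Lyn (0.71) had further probe sets without a call, at the log2 changes given.

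Transcription factors of cell lineage changed in both directions. Of 42 tested members of the lineage and homeobox transcription factors list, 6 were higher and 5 lower, with a median log2 change of -0.15, which is 0.02 under trimmed-mean scaling. Pou3f3, a POU factor of neural precursors, had signals of 241 and 219 on the C6 fast arrays and 8.50 and 4.81 on the C6SPGFP fast arrays and changed by -4.03 ± 0.24 (adjusted p = 1.88e-05). Snai2, a zinc finger repressor of the neural crest, had signals of 123 and 76.3 on the C6 fast arrays and 3.33 and 3.31 on the C6SPGFP fast arrays and changed by -3.21 ± 0.26 (adjusted p = 9.8e-05). Both lay near the floor in C6SPGFP fast cells. The leucine zipper gene Maf and the nuclear factor I gene Nfix fell too, with changes of -2.01 ± 0.26 (adjusted p = 0.0014) and -1.88 ± 0.27 (adjusted p = 0.00226). Lhx2, a LIM homeobox factor, had signals of 83.3 and 96.2 on the C6 fast arrays and 326 and 371 on the C6SPGFP fast arrays and rose by 1.87 ± 0.18 (adjusted p = 0.000326). Rhox5, an X-linked homeobox gene of the reproductive tract, had signals of 35.3 and 37.1 on the C6 fast arrays and 281 and 276 on the C6SPGFP fast arrays, and the forkhead gene Foxs1 had 12.6 and 14.8 on the C6 fast arrays and 103 and 100.2 on the C6SPGFP fast arrays. They rose by 2.70 ± 0.16 (adjusted p = 1.76e-05) and 2.34 ± 0.27 (adjusted p = 0.000771). Nfib, the brightest member, was not called, with signals of 578 and 549 on the C6 fast arrays and 438 and 383 on the C6SPGFP fast arrays. In further probe sets no call was reached: Rhox5 (-0.54), with log2 changes in parentheses.

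Immediate early genes, which respond within minutes to stimuli, moved in both directions. Of 33 tested members of the immediate early genes list, 4 were higher and 4 lower, with a median log2 change of 0.15. Nr4a1, an orphan nuclear receptor, had signals of 54.2 and 64.9 on the C6 fast arrays and 488 and 489 on the C6SPGFP fast arrays, a change of 2.88 ± 0.30 (adjusted p = 0.000436). Dusp6, a phosphatase that switches off the kinase ERK, had signals of 239.7 and 415 on the C6 fast arrays and 974 and 999 on the C6SPGFP fast arrays, and changed by 1.62 ± 0.26 (adjusted p = 0.00376). The synaptic scaffold gene Homer1 rose by 1.06. The AP-1 subunit genes Fosl1 and Fosl2, the RNA-binding protein gene Zfp36 and the kinase gene Pim3 fell, with changes of -0.79 to -0.84. Jun, the brightest member, was not called on its brightest probe set, with signals of 950.3 and 1486 on the C6 fast arrays. That probe set had 1558 and 2007 on the C6SPGFP fast arrays. Another Jun probe set was called higher, with 219 and 333 on the C6 fast arrays and 586 and 619 on the C6SPGFP fast arrays. It rose by 1.13 ± 0.21 (adjusted p = 0.00751). Further Jun probe sets, at log2 changes of 0.14 and 0.37, were not called. Fosl1, Fosl2, Homer1, Pim3 and Zfp36 were each no longer called in at least 1 of the fits that left out C6 fast replicates 1 or 2, C6SPGFP slow replicates 1 or 2 or C6SPGFP fast replicates 1 or 2 (in those fits, adjusted p of 0.0506 to 0.187 and log2 changes of 0.97 and of -0.63 to -0.93). No call was reached, at the log2 changes given, by further probe sets of Fosl2 (-0.65), Homer1 (0.18, 0.77 and 0.59) and Zfp36 (-0.39).

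Among protein kinase C, cAMP and calcium signalling genes 6.52% were higher and 6.52% lower, shares near those of all genes (8.82% and 7.09%). Of 46 tested members of the protein kinase C, cAMP and calcium signalling list, 3 were higher and 3 lower, with a median log2 change of 0.06. Pde2a, a phosphodiesterase that degrades cAMP and cGMP, had signals of 94.5 and 100.3 on the C6 fast arrays and 2.77 and 2.55 on the C6SPGFP fast arrays, a change of -3.30 ± 0.23 (adjusted p = 4.46e-05). Pde4b, a cAMP phosphodiesterase, had signals of 245 and 265 on the C6 fast arrays and 85.5 and 124 on the C6SPGFP fast arrays and a change of -1.24 ± 0.21 (adjusted p = 0.00541). Pde3b, which also degrades cAMP, rose by 1.33 ± 0.23 (adjusted p = 0.00508), so the 3 phosphodiesterase genes did not share a direction. Plcb1, a phospholipase C, rose by 1.61 ± 0.19 (adjusted p = 0.000894), the cAMP-dependent kinase subunit gene Prkar2b rose by 1.12, and the anchoring protein gene Akap12 fell by 1.08. Calm2, calmodulin, was not called, with signals of 1200.4 and 1110.2 on the C6 fast arrays and 1215 and 1281 on the C6SPGFP fast arrays. Of 25 tested members of the regulators of G-protein signalling and G proteins list, 4 were higher and 2 lower, with a median log2 change of -0.07. The regulator genes Rgs12 and Rgs14 rose by 1.37 and 0.94, the G-protein subunit genes Gng11 and Gnb1 by 1.93 and 0.88, and Arrb1, an arrestin that ends receptor signalling, changed by -1.72 ± 0.26 (adjusted p = 0.00287). Gnb4 fell by 0.82, and Gnas was not called, with signals of 2302 and 3036 on the C6 fast arrays and 2692 and 2964 on the C6SPGFP fast arrays. Signals of Rgs4 ran from 1.6 to 3.74 over the 8 arrays and did not pass the filter, and Rgs3 has no probe set named for it here. Dock8, an exchange factor for the GTPase Cdc42, fell, with signals of 584 and 399 on the C6 fast arrays and 46.9 and 31.5 on the C6SPGFP fast arrays and a change of -3.40 ± 0.29 (adjusted p = 0.000149). Prickle2, a planar polarity gene, rose by 4.44 ± 0.18 (adjusted p = 2.73e-06). Gnb1, Gnb4, Prkar2b, Rgs12 and Rgs14 each missed the threshold in at least 1 of the fits that left out C6 fast replicates 1 or 2, C6SPGFP slow replicates 1 or 2 or C6SPGFP fast replicates 1 or 2 (in those fits, adjusted p of 0.0535 to 0.211 and log2 changes of 0.53 to 1.39 and of -0.63 to -0.84). Akap12 (-0.43), Dock8 (0.20), Gnb1 (0.14), Pde4b (-0.42 and -0.98) and Plcb1 (-0.0029) had further probe sets without a call, at the log2 changes given.

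The sugar transporter genes Slc2a1 and Slc2a5 and several glycolytic enzyme genes were lower in C6SPGFP fast cells. Of 28 tested members of the glycolysis and glucose uptake list, 3 were higher and 9 lower, with a median log2 change of -0.17. Slc2a1, the main glucose transporter of many cells, had signals of 154 and 159 on the C6 fast arrays and 38.6 and 28.0 on the C6SPGFP fast arrays and changed by -2.0 ± 0.21 (adjusted p = 0.000504). Slc2a5, the fructose transporter, had signals of 150.3 and 104 on the C6 fast arrays and 7.12 and 5.74 on the C6SPGFP fast arrays on the probe set with the larger change, which was -3.21 ± 0.25 (adjusted p = 7.35e-05). Its brighter probe set, which stands for the gene in the list, had 148 and 122 on the C6 fast arrays and 10.7 and 40.4 on the C6SPGFP fast arrays and changed by -2.25 ± 0.48 (adjusted p = 0.0146). Pdk1, which holds pyruvate back from mitochondria, had signals of 148 and 131 on the C6 fast arrays and 32.9 and 49.0 on the C6SPGFP fast arrays and changed by -1.61 ± 0.24 (adjusted p = 0.00254), and the muscle-type enolase gene Eno3 fell by 1.65. In contrast Ldhb, the lactate dehydrogenase B subunit, rose by 1.19 ± 0.17 (adjusted p = 0.0023), and the phosphofructokinase gene Pfkm and the kinase gene Pdk2 rose by 1.11 and 0.74. Pgam1, the brightest member, was not called, with signals of 3677 and 3768 on the C6 fast arrays and 3061 and 3265 on the C6SPGFP fast arrays. Eno3, Pdk2, Pfkm and the brighter probe set of Slc2a5 each lost the call in at least 1 of the fits that left out C6 fast replicates 1 or 2 or C6SPGFP fast replicates 1 or 2 (in those fits, adjusted p of 0.0508 to 0.105 and log2 changes of 0.66 to 1.23 and of -1.37 to -2.40). Among further probe sets the call was missed: Pfkm (-0.04), with log2 changes in parentheses.

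In the sterol and fatty acid list 23 of 30 genes had a change below 0, as did 2055 of all 3878 genes. Of 30 tested members of the sterol and fatty acid synthesis list, 4 were higher and 6 lower, with a median log2 change of -0.40. Fasn, fatty acid synthase, had signals of 675 and 805 on the C6 fast arrays and 325 and 255 on the C6SPGFP fast arrays, a change of -1.33 ± 0.32 (adjusted p = 0.0245). The cholesterol pathway genes Mvk, Hsd17b7, Fdps and Acat2 changed by -0.96 to -1.21. Srebf1, a transcription factor of lipid synthesis genes, had signals of 14.4 and 27.8 on the C6 fast arrays and 57.4 and 71.2 on the C6SPGFP fast arrays and rose, as did the lysosomal lipase gene Lipa, the acyl-CoA synthetase gene Acsl1 and the elongase gene Elovl5, by 0.69 to 1.35. Acat2, Acsl1, Elovl5, Fasn, Fdps, Hsd17b7, Mvk and Srebf1 were each no longer called in at least 1 of the fits that left out C6 fast replicates 1 or 2, C6SPGFP slow replicates 1 or 2 or C6SPGFP fast replicates 1 or 2 (in those fits, adjusted p of 0.0504 to 0.188 and log2 changes of 0.62 to 1.22 and of -0.82 to -1.52). No call was reached, at the log2 changes given, by further probe sets of Acsl1 (0.34, 0.93 and 0.47) and Mvk (-0.93).

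Among pumps, channels and carriers, the sodium pump gene Atp1b1 was one of the 15 largest decreases. Of 58 tested members of the ion channels, pumps and water channels list, 6 were higher and 4 lower, with a median log2 change of 0.03. These shares, 10.3% and 6.90%, were near those of all genes. Atp1b1, a beta subunit of the sodium pump, had signals of 397 and 402 on the C6 fast arrays and 0.675 and 0.650 on the C6SPGFP fast arrays on the probe set with the larger change, -5.56 ± 0.23 (adjusted p = 2.73e-06). Its brighter probe set had 1466 and 1112 on the C6 fast arrays and 54.6 and 69.4 on the C6SPGFP fast arrays and changed by -4.21 ± 0.22 (adjusted p = 1.12e-05). On the slow arrays this probe set had 59.5 and 50.2 on the C6 slow arrays and 45.3 and 58.6 on the C6SPGFP slow arrays, so that the 2 C6 fast arrays stood above the other 6. Atp1b3, another beta subunit, rose by 0.50 ± 0.12 (adjusted p = 0.0224), with signals of 1382 and 1253 on the C6 fast arrays and 1779 and 1959.6 on the C6SPGFP fast arrays. Kcnab1, a potassium channel subunit, rose by 2.57 ± 0.28 (adjusted p = 0.00059), the ATP-gated channel gene P2rx4 by 1.42 ± 0.19 (adjusted p = 0.00164), and the calcium channel subunit genes Cacnb2 and Cacna2d1 by 1.18 and 1.05. Cacnb3 (-1.25), Slc4a2 (-0.82) and Slc12a2 (-0.75) fell, with the log2 changes in parentheses; they encode a calcium channel subunit, an anion exchanger and a chloride cotransporter. Of 43 tested members of the solute carriers of amino acids and metabolites list, 2 were higher and 5 lower, with a median log2 change of -0.23. Ass1, the urea cycle enzyme that makes argininosuccinate, had signals of 1.11 and 1.06 on the C6 fast arrays and 83.1 and 96.2 on the C6SPGFP fast arrays, a change of 3.42 ± 0.24 (adjusted p = 4.46e-05), while both slow sets stayed near the floor, with 1.25 and 2.29 on the C6 slow arrays and 1.25 and 1.43 on the C6SPGFP slow arrays. The glutamate transporter gene Slc1a1 rose by 0.94. The phosphate transporter gene Slc20a2, the inositol transporter gene Slc5a3 and the mitochondrial transaminase gene Got2 changed by -0.49 to -1.87, and the phosphate carrier gene Slc25a3 was not called, with signals of 2346 and 2292 on the C6 fast arrays and 2007 and 1914 on the C6SPGFP fast arrays. Atp1b3, Cacna2d1, Cacnb2, Cacnb3, Got2, Slc12a2, Slc1a1, Slc4a2 and Slc5a3 each missed the threshold in at least 1 of the fits that left out C6 fast replicates 1 or 2, C6SPGFP slow replicates 1 or 2 or C6SPGFP fast replicates 1 or 2 (in those fits, adjusted p of 0.0504 to 0.195 and log2 changes of 0.42 to 1.27 and of -0.45 to -1.57). Cacnb2 (1.01), Got2 (-0.24) and Slc4a2 (-0.44) had further probe sets without a call, at the log2 changes given.

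Detoxification genes fell and rose in equal number. Of 53 tested members of the oxidative stress and detoxification list, 8 were higher and 8 lower, with a median log2 change of 0.04. Hmox1, which degrades haem, had signals of 638 and 392 on the C6 fast arrays and 138 and 177 on the C6SPGFP fast arrays, a change of -1.63 ± 0.24 (adjusted p = 0.0023). The glutathione transferase genes Gstm2 and Gsta4 changed by -2.01 ± 0.33 (adjusted p = 0.00445) and -1.24 ± 0.21 (adjusted p = 0.00541), and the drug efflux pump gene Abcb1b by -1.90 ± 0.39 (adjusted p = 0.0131). Cyp1b1, a cytochrome that oxidises steroids and aromatic compounds, rose, with signals of 7.56 and 0.613 on the C6 fast arrays and 63.0 and 83.8 on the C6SPGFP fast arrays and a change of 2.80 ± 0.39 (adjusted p = 0.00179). The mitochondrial aldehyde dehydrogenase gene Aldh2 rose by 1.80 ± 0.18 (adjusted p = 0.000326), and the aldo-keto reductase gene Akr7a3 and the microsomal transferase gene Mgst3 by 1.43 and 1.32. Gstp1, the brightest member, was not called, with signals of 2155 and 2032 on the C6 fast arrays and 2174 and 2228 on the C6SPGFP fast arrays. Of 34 tested members of the heat shock and unfolded protein list, 4 were higher and 4 lower, with a median log2 change of 0.01, which is -0.15 under trimmed-mean scaling. Trib3, a pseudokinase induced by endoplasmic reticulum stress, changed by -2.37 ± 0.40 (adjusted p = 0.005). The small heat shock protein gene Hspb6 and the cochaperone genes St13 and Fkbp4 fell, with changes of -0.52 to -0.99, whereas Cryab (1.25), Dnajb9 (1.01), Hspa5 (0.48) and Ppib (0.46) rose, with log2 changes in parentheses; they encode alpha-B crystallin and 3 chaperones or isomerases of the endoplasmic reticulum. Hsp90ab1 was not called, with signals of 2819 and 2956 on the C6 fast arrays and 3082 and 3175 on the C6SPGFP fast arrays. Abcb1b, Cryab, Dnajb9, Fkbp4, Hspa5, Hspb6 and Ppib each lost the call in at least 1 of the fits that left out C6 fast replicates 1 or 2, C6SPGFP slow replicates 1 or 2 or C6SPGFP fast replicates 1 or 2 (in those fits, adjusted p of 0.0505 to 0.245 and log2 changes of 0.34 to 1.30 and of -0.46 to -1.94). For further probe sets no call was made: Cyp1b1 (0.61), Fkbp4 (-0.26 and -0.53), Hspa5 (1.12), St13 (0.07) and Trib3 (-1.23), with log2 changes in parentheses.

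Among cell cycle genes 7.89% were higher and 5.26% lower, shares near those of all genes, and growth arrest and p53 target genes went both ways. Of 38 tested members of the proliferation list, 3 were higher and 2 lower, with a median log2 change of -0.02. The cyclin gene Ccnd2, Mycn and the replication clamp gene Pcna rose by 0.51 to 1.29, the kinase gene Cdk2 fell by 0.82, and Odc1, which makes polyamines, changed by -1.28 ± 0.21 (adjusted p = 0.00403). Ccnd1, the brightest member, was not called, with signals of 2270.4 and 2302 on the C6 fast arrays and 2712 and 2336 on the C6SPGFP fast arrays. Of 22 tested members of the growth arrest and p53 targets list, 5 were higher and 5 lower, with a median log2 change of 0.12. Cdkn1a, the p53-induced inhibitor of cyclin-dependent kinases, had signals of 384 and 378 on the C6 fast arrays and 95.1 and 158 on the C6SPGFP fast arrays, a change of -1.57 ± 0.28 (adjusted p = 0.00628). Gadd45a, a DNA damage response gene, had signals of 587 and 369 on the C6 fast arrays and 185 and 136 on the C6SPGFP fast arrays, a change of -1.51 ± 0.25 (adjusted p = 0.00422). The antiproliferative gene Btg3 and the noncoding RNA host gene Gas5 fell, with changes of -1.14 and -1.08. Gas7, a growth arrest gene that shapes actin in neurons, went the other way, with signals of 27.0 and 23.1 on the C6 fast arrays and 971 and 900.5 on the C6SPGFP fast arrays and a change of 4.84 ± 0.26 (adjusted p = 1.28e-05). The caspase genes Casp6, Casp1 and Casp2 rose by 0.80 to 1.54. Btg3, Casp1, Casp2, Casp6, Ccnd2, Cdk2, Gas5, Mycn and Pcna were each no longer called in at least 1 of the fits that left out C6 fast replicates 1 or 2, C6SPGFP slow replicates 1 or 2 or C6SPGFP fast replicates 1 or 2 (in those fits, adjusted p of 0.0527 to 0.212 and log2 changes of 0.47 to 1.60 and of -0.62 to -1.23). No call was reached, at the log2 changes given, by further probe sets of Btg3 (-1.02), Casp1 (1.20), Casp2 (0.56 and 0.30), Casp6 (0.22), Ccnd2 (1.02), Gadd45a (-0.85) and Pcna (0.46).

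Ribosomal, proteasome, respiratory chain, endocytosis and annexin genes are given together here. Of 36 tested members of the cytosolic ribosomal proteins list, 0 were higher and 4 lower, with a median log2 change of -0.13, 30 of the 36 being below 0 beside 2055 of all 3878 genes. The 4 called ones, Rpsa, Rpl13a, Rps10 and Rpl35, fell, with changes of -0.40 to -0.45, and Rpl3, the brightest, was not called, with signals of 4287 and 3914 on the C6 fast arrays and 4222 and 4842 on the C6SPGFP fast arrays. Of 27 tested members of the proteasome and ubiquitin list, 0 were higher and 2 lower, with a median log2 change of -0.09. Psmc1 and Ube2b fell, with changes of -0.53 and -0.50, and Psmb5 was not called, with signals of 1622 and 1622 on the C6 fast arrays and 2052 and 1881 on the C6SPGFP fast arrays. Of 39 tested members of the oxidative phosphorylation list, 6 were higher and 3 lower, with a median log2 change of 0.19. The respiratory chain genes Cox5b, Ndufv2 and Ndufa4 and the malate dehydrogenase gene Mdh2 rose by 0.65 to 0.73, and Cox6c (-1.28), Idh2 (-0.60) and Atp5f1d (-0.52) fell, with log2 changes in parentheses. Cox8a was not called, with signals of 2610.1 and 2692 on the C6 fast arrays and 2943 and 2789.6 on the C6SPGFP fast arrays. Of 36 tested members of the endocytosis and caveolae list, 2 were higher and 2 lower, at 5.56% each below the shares of all genes. The median log2 change was -0.07, which is 0.08 under trimmed-mean scaling. Bin1, a membrane-bending protein, rose by 3.10 ± 0.35 (adjusted p = 0.000664) on its brightest probe set. Its other probe set rose by only 0.61 ± 0.17 (adjusted p = 0.0489), so the size of the Bin1 change is uncertain. That probe set had signals of 126 and 153 on the C6 fast arrays and 208 and 224 on the C6SPGFP fast arrays. Cav1, the caveolae protein caveolin 1, had signals of 402 and 434 on the C6 fast arrays and 976 and 1042 on the C6SPGFP fast arrays. It rose by 1.26 ± 0.13 (adjusted p = 0.000473). The adaptor gene Ap2a2 and the vesicle fusion gene Napa fell, with changes of -1.28 and -0.76, and Ap2m1 was not called, with signals of 1585 and 1396 on the C6 fast arrays and 1195 and 1141 on the C6SPGFP fast arrays. Besides S100b, 2 of the 11 annexin and S100 genes rose: Anxa4 and S100a1, by 0.82 and 0.72. Anxa6 fell by 1.01, and S100a4 was not called, with signals of 3167 and 3211 on the C6 fast arrays and 3914 and 3573 on the C6SPGFP fast arrays. Anxa4, Anxa6, Atp5f1d, Cox5b, Idh2, Napa, Ndufa4, Ndufv2, Psmc1, Rpl13a, Rpl35, Rps10, Rpsa, S100a1 and Ube2b each missed the threshold in at least 1 of the fits that left out C6 slow replicate 1, C6 fast replicates 1 or 2, C6SPGFP slow replicates 1 or 2 or C6SPGFP fast replicates 1 or 2 (in those fits, adjusted p of 0.0507 to 0.221 and log2 changes of 0.53 to 0.95 and of -0.31 to -0.97). Anxa6 (-0.56), Atp5f1d (-0.45), Cox5b (0.52), Cox6c (0.08), Mdh2 (0.20) and Ube2b (0.10 and -0.01) had further probe sets without a call, at the log2 changes given.

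**Figure D4:**
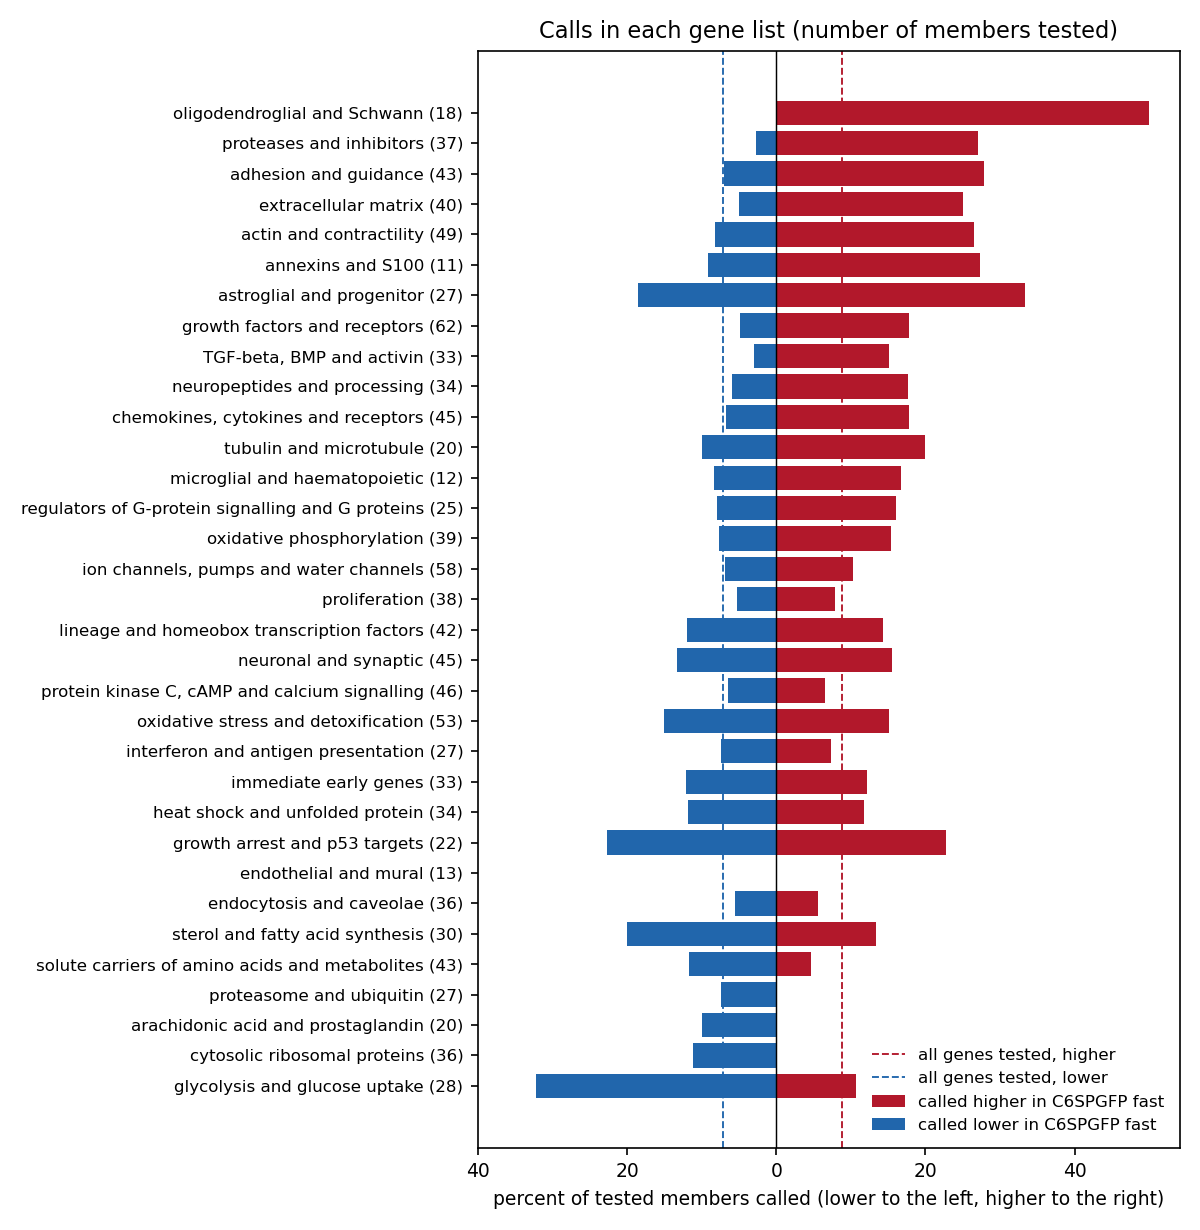
Percent of the tested members of each gene list called lower (bars to the left) and higher (bars to the right) in C6SPGFP fast cells, with the number tested in parentheses. Dashed lines mark the shares of all 3878 genes tested, 8.82% higher and 7.09% lower; the oligodendroglial and Schwann list reaches furthest to the right and the glycolysis list furthest to the left.

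The sets were also compared among slow cells, on the slow arrays. These arrays shared the normalisation, the filter and the estimate of spread with the fast arrays. The slow contrast is therefore not an independent check of the fast one. In slow cells, 424 probe sets (6.34%) were called between C6SPGFP and C6, 220 higher and 204 lower. Of the 554 probe sets called higher in fast cells, 134 were also higher in slow cells and 22 were lower there. Of the 488 called lower in fast cells, 97 were also lower in slow cells and 1 was higher there, Pde4b. The difference between the 2 contrasts was itself tested and was called for 255 of 6684 probe sets (3.82%). It was called for 158 of the 554 and for 57 of the 488; these were chosen by the fast contrast, so nothing is read from how often that contrast is the larger one.

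Some genes had opposite contrasts at the 2 speeds. Ccl2 had slow signals of 1873 and 1611 on the C6 slow arrays and 292 and 318 on the C6SPGFP slow arrays, a change of -2.48 ± 0.29 (adjusted p = 0.00253) in slow cells. It was highest in C6 slow cells and, among the C6SPGFP groups, higher in fast than in slow cells. Rhox5 had slow signals of 976 and 893 on the C6 slow arrays and 149 and 157 on the C6SPGFP slow arrays, a change of -2.55 ± 0.16 (adjusted p = 9.79e-05), and Cyp1b1 had 241 and 117 on the C6 slow arrays and 9.84 and 14.0 on the C6SPGFP slow arrays, a change of -3.16 ± 0.39 (adjusted p = 0.00326). For these 3 genes the fast contrast exceeded the slow one by 5.17 ± 0.40 (adjusted p = 0.000245), 5.25 ± 0.22 (adjusted p = 7.41e-06) and 5.96 ± 0.55 (adjusted p = 0.000605). F3 and Pdpn changed by -1.41 ± 0.24 (adjusted p = 0.0121) and -1.65 ± 0.36 (adjusted p = 0.0322) in slow cells, and Bmp7 and Fabp5 by -0.89 ± 0.22 (adjusted p = 0.048) and -0.83 ± 0.16 (adjusted p = 0.0206). Gbp2 changed by -1.19 ± 0.28 (adjusted p = 0.0419). Pde4b had slow signals of 113 and 89.9 on the C6 slow arrays and 199 and 206 on the C6SPGFP slow arrays and changed by 0.95 ± 0.21 (adjusted p = 0.0361) there, so that it rose in slow and fell in fast cells. For other genes the difference between the contrasts was not called. Dab2 changed by -4.51 ± 0.47 (adjusted p = 0.00169) in slow cells, Mt3 by 3.49 ± 0.20 (adjusted p = 9.03e-05) and Hmox1 by -1.89 ± 0.24 (adjusted p = 0.00356). For Dab2, Mt3 and Hmox1 the difference between the contrasts was 0.26 ± 0.67 (adjusted p = 0.891), 0.93 ± 0.29 (adjusted p = 0.152) and 0.26 ± 0.34 (adjusted p = 0.787).

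**Figure D5:**
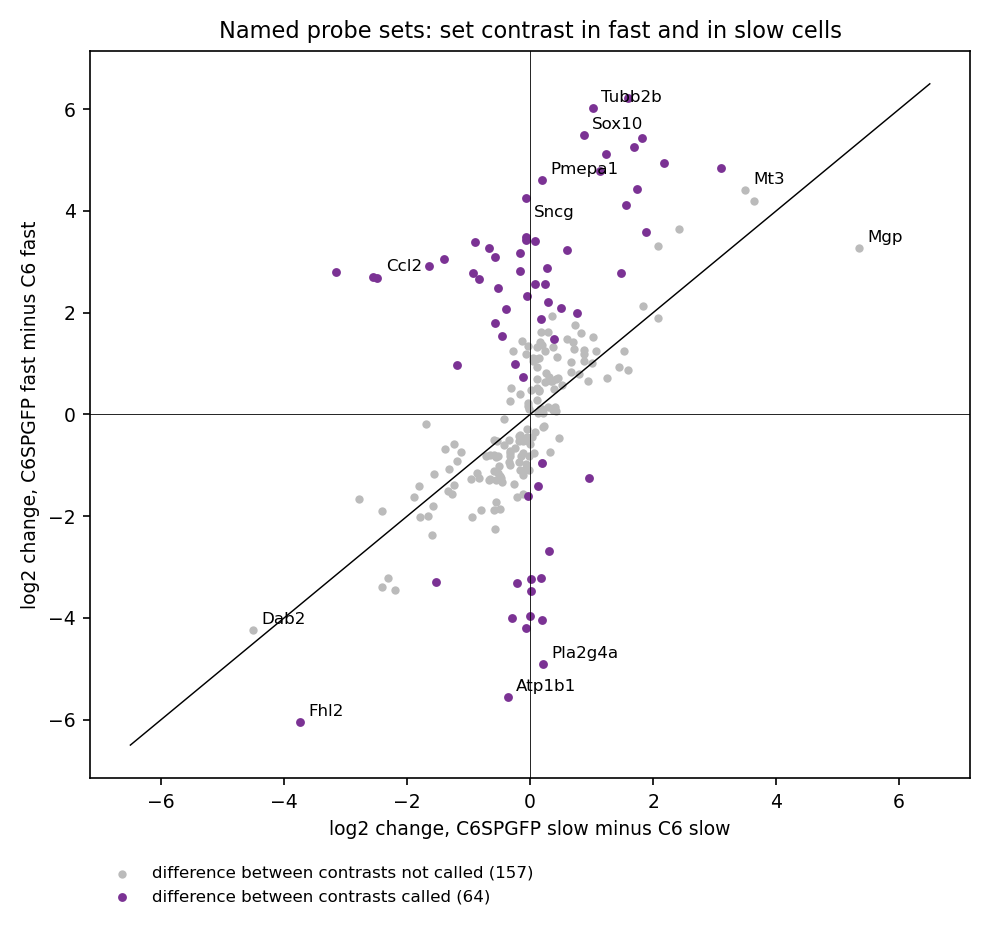
Log2 change between the sets in slow cells (horizontal axis) and in fast cells (vertical axis) for the 221 named probe sets, with the line of equal change. Purple points are the 64 probe sets for which the difference between the contrasts was called; Tubb2b, Sox10 and Pmepa1 lie far above the line, and Atp1b1 and Pla2g4a far below it.

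All 30 of the largest changes kept their call in each of the 8 fits that left out 1 array. Of the 198 named probe sets called, 104 kept it in all 8, and the 94 others missed it in at least 1. Of 339 genes with several tested probe sets and at least 1 call, 287 had the same sign on all their probe sets and 112 were called the same way on all.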

How the data were processed

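Total RNA of 8 samples was measured on Affymetrix rat arrays. The deposited value table holds 1 linear intensity per probe set and array (8799 probe sets, 59 of them controls, left out). How the authors made these intensities is not stated in any source used here. Per the labels, arrays fall into 4 groups of 2. Intensities were quantile normalised over the 8 arrays, transformed as log2(signal + 8), and kept where the mean signal was at least 8 (6684 probe sets). limma 3.58.1 in R 4.3.3 fitted 4 group means (lmFit, eBayes with trend, 4 residual and 4.49 prior degrees of freedom, two-sided, Benjamini-Hochberg over all tested). The deposited values were taken as linear, so log2 changes and ratios were computed here. The median SE was 0.241.

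Symbols came from the platform annotation, updated through RefSeq (7006 probe sets with 1 symbol, 308 with several, 1426 with none). In gene lists a gene stands by its brightest probe set. Named genes are the 15 largest called increases and decreases, up to 4 called members per list and direction, each list's brightest member, and Vim, Gfap, S100b, Rgs3 and Rgs4. Comparison, gene lists and tests were chosen with earlier results of these data known. No set test was run. The alternatives were other scalings, pseudocounts, filters, fits, a replicate block and leaving out each array. The fit was tested on simulated data.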

Additional observations from a re-analysis of the deposited data

Results flagged for a closer look

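The difference between C6SPGFP and C6 was not the same in fast and in slow cells for 64 named probe sets, by limma's test of the difference between the 2 contrasts. Each value in parentheses is the log2 change in fast cells minus the log2 change in slow cells, with adjusted p from 3.64e-06 to 0.0451 over the 64. No explanation is offered for them.

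After rounding, the fast contrast was higher by 3 or more for Cyp1b1 (5.96), Rhox5 (5.25), Ccl2 (5.17), Tubb2b (5.0), Sox10 (4.62), Aatk (4.61), Pdpn (4.58), F3 (4.47), Pmepa1 (4.42), Sncg (4.33), Bmp7 (4.29), Mmp16 (3.94), Cd81 (3.88), Eln (3.71), Bin1 (3.67), Gfra1 (3.66), Calcb (3.60), Ptprz1 (3.57), Gnrhr (3.55), Fabp5 (3.49), Ass1 (3.49), Itga1 (3.34), Crmp1 (3.33) and Ezr (3.0). It was higher by at least 2 and under 3 for Grb14 (2.99), Reln (2.75), Prickle2 (2.71), Cd9 (2.64), Nr4a1 (2.61), S100b (2.55), Ctsl (2.49), Npr3 (2.45), Foxs1 (2.38), Aldh2 (2.37), Kcnab1 (2.33) and Gbp2 (2.16). It was higher by under 2 for Casp6 (1.99), Bgn (1.93), Gas7 (1.74), Gad1 (1.70), Lhx2 (1.70), Add3 (1.58), Ngfr (1.31), Tgfb3 (1.24), Rhob (1.23), Marcks (1.09) and Mdh2 (0.84). The fast contrast was the lower one for Atp1b1 (-5.19), Pla2g4a (-5.12), Pou3f3 (-4.23), Atp1b1 (-4.13), Ptgs2 (-3.97), Rtn1 (-3.70), Olfm1 (-3.49), Slc2a5 (-3.38), Lsamp (-3.25), Pde2a (-3.09), Basp1 (-2.99), Fhl2 (-2.31), Pde4b (-2.19), Lama3 (-1.78), Pdk1 (-1.57), Efna1 (-1.54) and Acat2 (-1.16). Atp1b1 has a value for each of its 2 named probe sets. Groups of 2 arrays are too small for a check of single outlying arrays.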

How the results depend on the processing

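Calls numbered 866 to 1142 under pseudocounts of 2 and 32, no filter, a filter at a mean of 32, a filter on the fast arrays, a fit of the fast arrays alone, moderation without a trend, and trimmed-mean scaling, against 1042. Trimmed-mean scaling gave 1142 calls, 58.9% of them higher instead of 53.2%, and moved the median change of all probe sets from -0.03 to 0.07. Fits without 1 array gave 509 to 1127 calls, 302 to 585 higher and 207 to 542 lower. Leaving out C6SPGFP fast replicate 1 also lowers the common scale and so leaves 6086 probe sets above the filter. On the deposited scale, without normalisation, 182 probe sets were called, 171 higher and 11 lower (94.0% higher), because the median change of all probe sets became 1.11 with 1 array about 5 times brighter. All 30 of the largest changes kept their direction there. A shift of about 1.11 is too small to reverse them, the smallest being -3.21 (Slc2a5), so nothing is read from this. The named probe sets whose sign changed on that scale had log2 changes of: Notch2 0.057, Clu 0.31, Cd37 0.12, P4ha1 0.075, Sdc1 0.57, Itga7 0.50, Tpm1 0.10, Ank3 0.31, Add1 0.30, Pafah1b1 0.39, Cdk2 0.44, Btg3 0.072, Gas5 0.095, Igf2r 0.0048, Bdnf 0.31, Csf3 0.60, Mif 0.21, Anxa6 0.093, Mvk 0.017, Hsd17b7 0.15, Pim3 0.36, Fosl2 0.46, Zfp36 0.42, Fosl1 0.41, Hspb6 0.23, St13 0.37, Fkbp4 0.67, Gsta4 0.0072, Psmb8 0.39, Idh2 0.45, Atp5f1d 0.54, Slc4a2 0.38, Slc12a2 0.44, Glul 0.54, Got2 0.60, Gnb4 0.41, Akap12 0.15, Pam 0.44, Napa 0.38, Rpsa 0.27, Rpl13a 0.34, Rps10 0.38, Rpl35 0.46, Psmc1 0.60 and Ube2b 0.71. Under trimmed-mean scaling the 1 named probe set that changed sign was Cox8a, at -0.37, which was not called.

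The 2 fast groups share the replicate numbers 1 and 2. Deviations of same-numbered fast arrays from their group means correlated at r = 0.03 over probe sets. Over the other pairs of groups this correlation was -0.13 to 0.27 (0.27 for C6 slow with C6 fast and 0.10 for C6SPGFP slow with C6SPGFP fast), so the numbers were not taken as pairs. With the replicate number as a block, 989 probe sets were called, 528 higher and 461 lower, and 947 of these were shared with the fit without it. With 2 arrays a group, precision is limited by their number; dim probe sets have only the scale's floor as a reference. Detection calls were not used here.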
